A study of Danio rerio with 6 samples.

Results

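A set of 73 loci with placeholder names, out of 21769 rows in the larger deposited table, was higher in every dhx38 mutant library of zebrafish embryos than in every sibling library by a wide margin. Each of them carries a name that starts with si:, zgc:, wu:, im: or LOC, or with CR, CT, CU, BX, AL, CABZ, FP or FO followed by digits. A row was taken when its lowest mutant value was at least 2 times its highest sibling value and its mutant mean was at least 1 normalized CPM (read counts scaled to library size by the authors). The 6 library values therefore chose the loci, and their difference between the groups is described below without a test. Of the 21769 rows, 4899 have such a name, so the set is 1.49% of the unnamed loci.

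RNA was sequenced from 3 libraries of dhx38 mutants (labelled dhx38-- for replicate 1 and dhx38-/- for replicates 2 and 3) and from 3 libraries of their WT siblings. All embryos were AB fish collected 36 hours after fertilization. The tissue is labelled tail, and the extraction text calls it the trunk. The labels state neither the mutation nor how many embryos went into a library. Whether replicate libraries stem from separate clutches is not said, and p-values then reflect the spread among these 6 libraries and no wider population.

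DHX38, known from yeast as Prp16, is an ATPase of the DEAH-box family that remodels the spliceosome between the catalytic steps of pre-mRNA splicing. Loci with placeholder names are those that curators have not tied to a described gene. Names with si: come from clones sequenced at the Sanger Institute, zgc: from the Zebrafish Gene Collection of cDNAs, wu: from expressed sequence tags, and accession-style names from the database entry of a sequenced clone or contig. Such rows can hold long non-coding RNAs, small RNA genes, uncharacterised protein-coding genes, and pieces of transcripts that belong to a neighbour. In bulk tissue, more cells of a type and more RNA per cell cannot be told apart, and this holds for every level below.

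The targeted gene was itself higher in the libraries labelled as mutant. dhx38 had 57.24, 90.38 and 53.11 normalized CPM in the 3 mutant libraries, against 33.77, 33.77 and 27.26 in the 3 sibling libraries, with means of 66.9 ± 20.4 and 31.6 ± 3.76 (SD, n = 3 each). The groups did not overlap, and the log2 fold change was 1.02 ± 0.22 (SE; limma adjusted p = 0.063, and 0.00664 with the replicate number as a block). Since the mutation is not stated, the RNA level does not check the genotype.

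The deposited values of a library sum to between 935800 and 1067000 normalized CPM, and the smallest value above 0 is 0.03 in replicates 1 and 2 and 0.05 in replicate 3 of both groups. No source used here gives read totals, and the depth behind a value was not estimated. Low values move in larger steps in replicate 3 of both groups than in the other replicates. Libraries with the same replicate number deviated together, so the fit with the replicate number as a block is given where it changes a call. Of 39 measured markers in 10 cell type lists, limma called 0 higher and 0 lower in mutants; with the block, 1 was called higher and 8 lower, where 6.85% of all genes were called higher and 13.7% in either direction. At an unadjusted p under 0.05, limma gave 4 of the markers higher and 5 lower. The share of all genes at that p is not given here, so nothing is read from these counts. Of the 8 called lower with the block, 4 were the lens markers. Their median log2 fold change was -1.19, and their sums overlapped between the groups (247.6 to 898.3 normalized CPM in mutants, 705.6 to 1073 in siblings). The retina and eye markers summed to 75.34 to 100.3 in mutants and 80.37 to 102.8 in siblings. Lens and eye markers were thus read in every library although the tissue is labelled tail. Whether the libraries held tissue other than the label states was not tested. The summed skeletal muscle markers were lower in every mutant library than in every sibling library (15090 to 18890 against 20050 to 22110 normalized CPM), and the endothelial sum was higher (133.0 to 140.5 against 124.6 to 132.1), as was that of liver and yolk (5203 to 6902 against 2967 to 4743). The part of these shifts in the levels below was not tested.

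Summed over the 73 loci, mutant libraries had 376, 656 and 521 normalized CPM, against 92.6, 83.7 and 88.7 in sibling libraries. The mutant mean was 518 ± 140 and the sibling mean 88.3 ± 4.47 (SD, n = 3 each), a ratio of 5.86. The sum is a small part of each library, 0.0402% to 0.0673% in mutants and 0.00849% to 0.00926% in siblings. The 5 loci with the highest mutant means made up 42.3% to 47.1% of that sum in mutants and 49.4% to 51.6% in siblings.

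**Figure D1:**
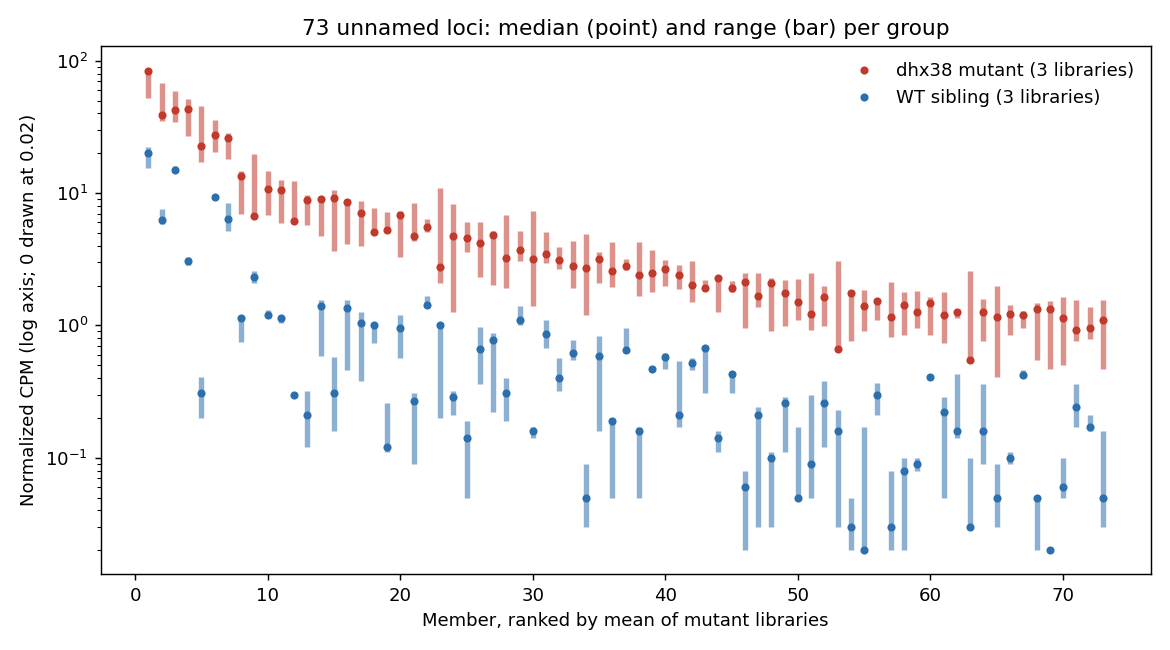
Normalized CPM (log axis, with 0 drawn at 0.02) of the 73 loci, ranked by their mutant mean; points are medians and bars the range of the 3 mutant (red) and 3 WT sibling (blue) libraries. Mutant means run from 1.04 to 73.6 normalized CPM, and the bars of the groups stay apart at every locus, as the choice of loci requires.

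Most of the loci were low even in mutants, as the plot of ranked loci shows. Mutant means ran from 1.04 to 73.6 normalized CPM with a median of 2.86, and sibling means from 0 to 19.4 with a median of 0.300. In mutants 10 loci averaged at least 10, another 13 between 5 and 10, 20 between 2 and 5, and 30 between 1 and 2 normalized CPM. These values are not divided by transcript length, which the file does not give, so they order libraries within a locus and not transcript numbers between loci.

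The ratio of the mutant mean to the sibling mean ran from 2.67 to 93.1 with a median of 7.65. For 11 loci the lowest mutant value was at least 10 times the highest sibling value. In 11 loci every sibling value lay at or under 3 times the smallest value above 0 of its library, so that their ratios rest on sibling values near the lowest that the table holds. A total of 7 loci were at 0 in some sibling library. One of them, si:ch211-145c1.1 on chromosome 9, had 0.47, 1.32 and 1.53 normalized CPM in mutants and is listed at 0 in all 3 sibling libraries, so no ratio is given for it. None of the loci was at 0 in a mutant library.

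By limma over all 21769 genes (log2 of the value + 1, Benjamini-Hochberg), 57 of the 73 loci were called higher at an adjusted p under 0.05, where 1.41% of all genes (1.7% in either direction) and 1.74% of all unnamed loci were. With the replicate block 73 were called, where 6.85% of all genes were (13.7% in either direction). Since the same contrast chose the loci, nothing is read from these counts. Without mutant replicates 1, 2 and 3 the fit without a block called 68, 17 and 34 of the loci. Without sibling replicates 1, 2 and 3 it called 16, 14 and 13. Over all genes it called 370 in either direction with all libraries. That number was 1731, 52 and 147 without mutant replicates 1, 2 and 3, and 43, 34 and 31 without sibling replicates 1, 2 and 3. The shorter deposited table of 956 rows, whose criterion is not given in the sources used here, holds 67 of the 73 loci with the same values. The 6 that it leaves out are CABZ01072952.1, CR847563.1, CR788281.2, CU459056.2, CR925757.2 and BX569793.1.

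The thresholds have no gap around them. The 5 loci just inside the 2-fold limit had ratios of the lowest mutant to the highest sibling value of 2.0 to 2.11, and the 5 unnamed loci just outside had 1.90 to 1.97. At the level limit, the 5 loci just inside had mutant means of 1.04 to 1.11 normalized CPM, and the 5 just outside 0.880 to 0.983. Without mutant replicate 1, which was the lowest mutant library at most of the loci, 136 unnamed loci met the rule.

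The locus with the highest mutant level was si:ch211-196c10.15 (ENSDARG00000095724) on the minus strand of chromosome 8. It had 52.57, 85.21 and 82.94 normalized CPM in mutants, against 22.42, 15.59 and 20.25 in siblings. The ratio of means was 3.79, below the median of the set, and the sibling level was the highest of the set.

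The expressed-sequence-tag locus wu:fj64h06 (ENSDARG00000096310, minus strand of chromosome 21) followed, with 38.97, 67.94 and 34.91 normalized CPM in mutants and 5.84, 6.29 and 7.53 in siblings. The sibling libraries lay close together, and the mutant libraries spread mainly through replicate 2. The ratio of means was 7.21. The name table gives this ID another placeholder, si:ch1073-170h8.3.

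A pair of high loci lies on scaffolds that the assembly does not place on a chromosome. CABZ01085177.1 (ENSDARG00000104644) had 27.12, 51.29 and 42.84 normalized CPM in mutants, against 2.88, 3.05 and 3.27 in siblings, a ratio of means of 13.2. CABZ01072952.1 (ENSDARG00000099739) had 34.71, 58.79 and 42.29 in mutants, against 14.85, 16.02 and 14.38 in siblings, a ratio of 3.0. Both were highest in mutant replicate 2 and lowest in mutant replicate 1.

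The largest ratio belonged to si:dkey-204l11.1 (ENSDARG00000079403) on the minus strand of chromosome 5. It had 22.71, 45.79 and 17.16 normalized CPM in mutants, against 0.20, 0.41 and 0.31 in siblings, so that the lowest mutant value was 41.9 times the highest sibling value. In the RefSeq gene table of another assembly (GRCz12tu), this protein-coding locus overlaps ar, the androgen receptor gene, on the opposite strand. The values of ar were 3.56, 3.90 and 3.28 normalized CPM in mutants and 2.71, 2.67 and 3.11 in siblings (log2 fold change 0.26, limma adjusted p = 0.317). The strand setting of the counting is not given in the sources used here, so reads of overlapping genes on opposite strands cannot be told apart.

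A similar pattern of a near-silent sibling level came with si:dkey-85n7.7 on the minus strand of chromosome 20, at 6.10, 12.44 and 6.12 normalized CPM in mutants against 0.29, 0.30 and 0.31 in siblings. CR318607.1 on chromosome 14 had 5.78, 8.87 and 9.62 in mutants and 0.12, 0.32 and 0.21 in siblings. CR925709.2 on chromosome 23 had 5.28, 7.19 and 5.08 in mutants and 0.12, 0.11 and 0.26 in siblings. In these 3 loci the lowest mutant value was 18.1 to 19.7 times the highest sibling value. CR318607.1 and CR925709.2 are named here after their values were seen.

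Several low loci had large ratios of means, with sibling values near the smallest that the table holds. At the 3 named here, the ratio of the lowest mutant to the highest sibling value was smaller than at the loci above. FO834828.1 on chromosome 1 had 0.76, 1.76 and 1.80 normalized CPM in mutants and 0.03, 0.05 and 0.00 in siblings, a ratio of means of 54.0. si:dkey-249p7.4 on chromosome 20 had 1.20, 4.94 and 2.73 in mutants and 0.09, 0.03 and 0.05 in siblings, a ratio of 52.2. CU467639.1 on chromosome 14 had 0.96, 2.51 and 2.13 in mutants and 0.06, 0.08 and 0.00 in siblings. Sibling values of this size move in coarse steps, and so do these ratios, while every mutant value of the 3 loci is at least 0.76. These 3 loci are also named after their values were seen.

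**Figure D2:**
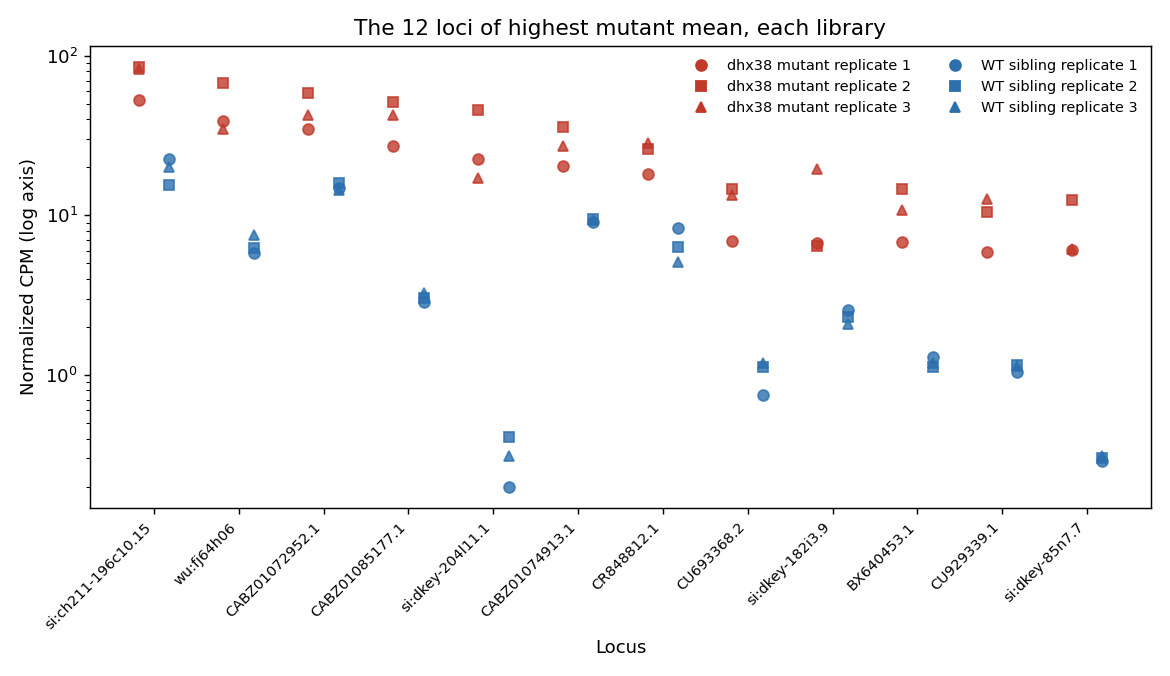
Normalized CPM (log axis) in each library for the 12 loci with the highest mutant means, with red symbols for dhx38 mutants, blue for WT siblings and the shape giving the replicate number. The gap between the groups is narrowest at CABZ01074913.1, CABZ01072952.1 and CR848812.1, and widest at si:dkey-204l11.1.

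The Ensembl name table gave a symbol to 41 of the 73 IDs: the same placeholder for 14, another si: placeholder for 23 and a descriptive symbol for 4. The other 32 IDs had no symbol. CABZ01074913.1 on chromosome 14 is listed there as ddx41, a DEAD-box RNA helicase, and had 20.49, 35.63 and 27.37 normalized CPM in mutants, against 9.04, 9.48 and 9.34 in siblings. CT027646.5 on chromosome 2 is listed as SNORA81, a box H/ACA small nucleolar RNA of the class that guides pseudouridylation, and had 0.76, 1.55 and 0.93 in mutants, against 0.17, 0.24 and 0.36 in siblings. The mutant libraries were above the sibling libraries in both, by a ratio of means of 3.0 for CABZ01074913.1 and 4.21 for CT027646.5.

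The other 2 descriptive symbols belong to low loci. si:dkey-79p17.3 on chromosome 9, listed as LCT, the symbol of the enzyme lactase, had 1.98, 3.13 and 2.68 normalized CPM in mutants and 0.58, 0.62 and 0.47 in siblings. si:dkey-40c23.1 on chromosome 11, listed as dtex3lb.1, a name of the deltex family of ubiquitin ligases, had 0.79, 0.96 and 1.37 in mutants and 0.17, 0.16 and 0.21 in siblings. Among mutant libraries both moved by less than 2 times between the lowest and the highest.

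The kinds of placeholder names were not represented alike. Accession-style names made up 56 of the 73 loci, and the share of such rows that met the rule was 2.82% of 1983, or 4.67% of the 1199 with a mutant mean of at least 1 normalized CPM. Names with si:, zgc:, wu: or im: made up 17, which is 0.583% of 2916 rows, or 0.812% of the 2094 at that level. By first letters, 17 of 195 CR rows at that level met the rule (8.72%), 5 of 54 CT rows (9.26%), 11 of 159 CU rows (6.92%), 13 of 281 BX rows (4.63%) and 7 of 372 CABZ rows (1.88%). The si: rows gave 14 of 1522 (0.920%) and the zgc: rows 2 of 541 (0.370%). AL gave 2, FO 1 and wu: 1, while FP and im: gave 0 and the table holds no LOC row. Together 73 of 3293 unnamed loci at that level met the rule (2.22%), against 111 of 15245 rows with any other name (0.728%). That level is itself part of the rule, and 14 of the 73 loci had a sibling mean of at least 1 normalized CPM. Most of the loci thus enter the shares at that level through their mutant values, while rows low in both groups are left out. Over all rows, 1.49% of the unnamed loci and 0.658% of rows with other names met the rule. No test was made of these differences.

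**Figure D3:**
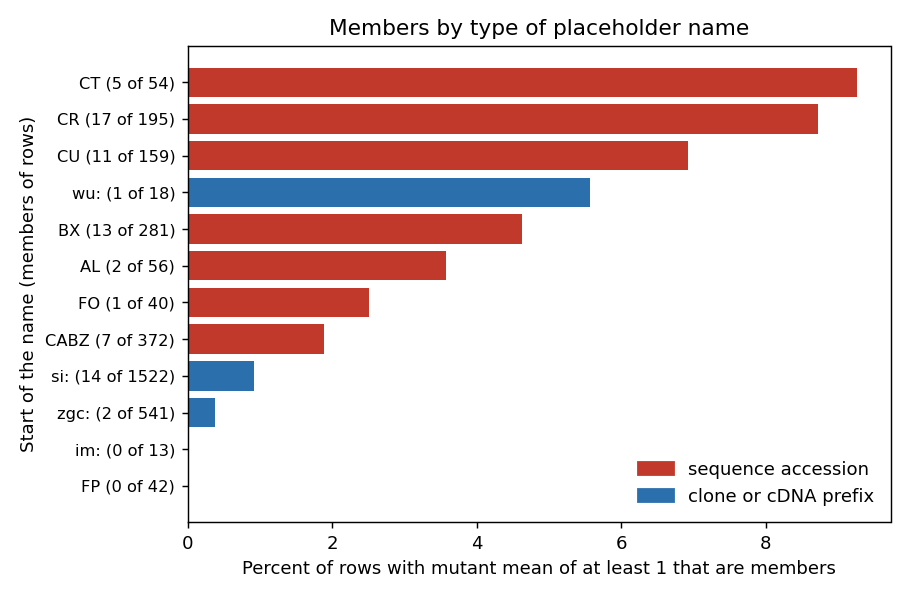
Share of rows with a mutant mean of at least 1 normalized CPM that belong to the 73 loci (percent, x axis), by the letters that open the name; the counts are given beside each bar, red marks accession-style names and blue marks clone or cDNA prefixes. CT, CR and CU rows reach 6.92% to 9.26%, and si: and zgc: rows stay at 0.920% and 0.370%. The level that limits the rows is part of the rule that chose the loci.

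The loci lie on both strands and on most chromosomes. The plus strand holds 36 and the minus strand 37, and among all unnamed rows the plus strand holds 2395 and the minus strand 2504. Of 25 chromosomes 20 hold at least 1 of the loci, and 4 loci lie on unplaced scaffolds. Chromosomes 15, 2 and 20 hold 5 each, the highest number, which is 2.16%, 2.58% and 3.23% of their unnamed rows. Chromosome 4 has 638 unnamed rows, the most of any, and 4 of the loci (0.627%). Chromosomes 10, 16, 17, 19 and 25 hold 0 of the loci, although 109 to 173 unnamed rows lie on each. The deposited table has no biotype column.

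Within the mutant group, replicate 1 was the lowest library at most of the loci. Mutant replicate 2 was the highest mutant library at 45 loci, replicate 3 at 26 and replicate 1 at 2, and replicate 1 was the lowest at 58. The full order of replicate 2 over 3 over 1 was seen at 33 loci, and that of 3 over 2 over 1 at 24. The median ratio of replicate 2 to replicate 1 was 1.75, of replicate 3 to replicate 1 it was 1.58, and of replicate 3 to replicate 2 it was 0.872. The other unnamed loci had median ratios of 0.996, 1.0 and 1.02 for the same pairs of libraries. In the 111 rows with other names that met the same fold and level, these medians were 1.77, 1.37 and 0.797. Replicate 1 was the lowest mutant library at 81 of them, so this order is not particular to the unnamed loci.

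The 2 loci that were highest in mutant replicate 1 were BX005392.3 on chromosome 24, with 10.48, 9.15 and 3.66 normalized CPM in mutants and 0.58, 0.16 and 0.31 in siblings, and BX569793.1 on chromosome 6, with 1.28, 0.96 and 1.20 in mutants and 0.46, 0.41 and 0.42 in siblings. At both zgc: loci mutant replicate 1 was the lowest. zgc:174320 on chromosome 1 had 2.01, 4.81 and 5.19 in mutants and 0.78, 0.22 and 0.88 in siblings, and zgc:162171 on chromosome 7 had 0.85, 1.65 and 1.48 in mutants and 0.40, 0.41 and 0.42 in siblings. These loci, other than zgc:162171 and BX569793.1, are named here after their values were seen.

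By median, the 73 unnamed loci had a lower level and a larger ratio than the 111 rows with other names that met the same fold and level. Their mutant means had a median of 2.86 normalized CPM, against 27.5 in the rows with other names, and the median ratio of means was 7.65, against 4.36. The rows with other names were not alike in level. The median mutant mean was 1.45 normalized CPM in the 17 named as small RNAs and 38.8 in the other 94. Among rows with a ratio, the lowest mutant value was at least 10 times the highest sibling value at 11 unnamed loci. It was so at 0 of the rows with other names, where the ratio was at most 9.90. In each set 1 row was at 0 in every sibling library and has no such ratio. The sibling means had a median of 0.300 normalized CPM in the unnamed loci, against 4.71 in the rows with other names. Every sibling value lay at or under 3 times the smallest of its library above 0 at 11 unnamed loci, against 2 of these rows. The sibling level is the denominator of these ratios, so the larger ratios and the lower sibling levels are not separate observations. Replicate 2 was the highest mutant library at 90 of these 111 rows, replicate 3 at 20 and replicate 1 at 1. Both sets were chosen on the same contrast, and these values are given side by side without a test.

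Among rows named as small RNAs, 17 of 53 met the rule, where 0.658% of all rows outside the placeholder names did. Only 24 of the 53 had a mutant mean of at least 1 normalized CPM, and 0.728% of rows outside the placeholder names at that level met the rule. This level is part of the rule, so the count and share at that level leave out rows low in both groups. No test was made of this difference. Replicate 2 was the highest mutant library at 10 of these 17 and replicate 3 at 7. Of the other 94 rows with names that met the rule, 80 were highest in replicate 2, 13 in replicate 3 and 1 in replicate 1. With the groups exchanged, the rule was met by few rows: 2 unnamed loci (0.0408%) and 6 rows with other names (0.0356%) had a lowest sibling value of at least 2 times the highest mutant value and a sibling mean of at least 1 normalized CPM. By limma over all genes 308 were called higher and 62 lower, and with the replicate block 1491 higher and 1495 lower. The 2 unnamed loci are BX324164.4 on chromosome 4, with 0.76, 0.59 and 0.44 normalized CPM in mutants and 1.53, 2.49 and 1.77 in siblings, and si:ch211-51h9.7 on chromosome 8, with 2.36, 1.19 and 1.69 in mutants and 4.72, 5.0 and 5.09 in siblings.

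The 6 loci with the largest spread between mutant libraries did not peak in the same one. BX470240.1 on chromosome 4 had 4.73, 8.30 and 1.26 normalized CPM in mutants, with siblings at 0.29, 0.32 and 0.21, a span of 6.59 times among mutants. CR847563.1 on chromosome 11 had 2.74, 10.96 and 2.08 in mutants, with siblings at 0.20, 1.0 and 1.04. CU459056.2 on chromosome 12 had 0.64, 3.05 and 0.66 in mutants, with siblings at 0.23, 0.03 and 0.16. BX897682.1 on chromosome 3, at 0.55, 2.59 and 0.55 in mutants and 0.03, 0.03 and 0.10 in siblings, was likewise highest in mutant replicate 2. CU683900.2 on chromosome 7 had 1.40, 3.15 and 7.32 in mutants, with siblings at 0.17, 0.14 and 0.16. BX927397.1 on chromosome 7, at 0.41, 1.16 and 1.97 in mutants and 0.09, 0.03 and 0.05 in siblings, was also highest in replicate 3. At the other end, CR933730.1 on chromosome 24 had 1.14, 1.29 and 1.26 in mutants, with siblings at 0.14, 0.43 and 0.16.

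Of the loci with a sibling mean of at least 0.5 normalized CPM, where sibling values are less coarse, the ratio of the lowest mutant to the highest sibling value was largest for CABZ01085177.1 at 8.29. CU693368.2, BX640453.1 and CU929339.1 followed at 5.84, 5.23 and 5.09. These 3 loci lie on chromosomes 20, 12 and 6. CU693368.2 had 6.95, 14.56 and 13.44 normalized CPM in mutants and 0.75, 1.13 and 1.19 in siblings. BX640453.1 had 6.80, 14.61 and 10.82 in mutants and 1.30, 1.13 and 1.19 in siblings, and CU929339.1 had 5.90, 10.55 and 12.62 in mutants and 1.04, 1.16 and 1.14 in siblings. In every mutant library each of the 3 loci lay above all sibling values of the 3, and in sibling replicate 1 they ranged from 0.75 to 1.30. The other loci named under this measure were CABZ01054391.1, wu:fj64h06, si:dkey-79p17.3, CU137716.1, si:dkey-208m12.2, CU469530.2, CR788281.2 and CR749163.1, with ratios between 2.75 and 4.66. Of these, si:dkey-208m12.2 on chromosome 22 had close values within each group, 5.11, 6.33 and 5.52 normalized CPM in mutants and 1.35, 1.43 and 1.66 in siblings. CR788281.2 on chromosome 2 had 1.93, 2.22 and 1.91 in mutants and 0.69, 0.68 and 0.31 in siblings. CABZ01054391.1 on chromosome 4 had 4.85, 7.70 and 5.08 in mutants and 1.04, 1.0 and 0.73 in siblings.

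Likeness between rows was then measured over the 6 libraries, by a rule chosen after the values had been seen. A row was taken as alike when its log2 value (with 0.05 added) lay within 0.6 of the locus in every library. Of 33 loci with a mutant mean of at least 3 normalized CPM, 16 had at least 1 alike row in the whole table. Of the 103 pairs of a locus and an alike row, 75 had a row outside the placeholder names, 16 another of the 73 loci and 12 another unnamed locus. A pair within the 73 loci is counted from each side. CABZ01072952.1 alone had 38 alike rows outside the placeholder names, such as fbxo7 on chromosome 4 and map3k14a on chromosome 3, so likeness by this rule does not mark copies. CU929339.1 was alike to CU693368.2 and to BX640453.1. One of the rows named SNORA73, a small nucleolar RNA, on chromosome 20 was alike to CU929339.1 and BX640453.1, with 6.68, 12.31 and 12.24 normalized CPM in mutants and 1.18, 1.38 and 0.78 in siblings.

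A group of 5 rows that includes CU469530.2 and the rows alike to it lay on 4 chromosomes. CU469530.2 on chromosome 2 had 4.76, 9.0 and 9.56 normalized CPM in mutants and 1.41, 0.59 and 1.56 in siblings. CT025887.1 on chromosome 13 had 4.14, 8.51 and 9.02 in mutants and 1.35, 0.46 and 1.56 in siblings. The others were CU137716.1 on chromosome 22, CR749163.1 on chromosome 12 and LO018020.2, also on chromosome 12, whose prefix lies outside the rule although its values meet it.

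Across these 5 rows, mutant replicates 1, 2 and 3 ranged from 3.27 to 4.76, from 7.32 to 9.0 and from 6.83 to 9.56 normalized CPM, and sibling replicates 1, 2 and 3 from 0.95 to 1.47, from 0.38 to 0.59 and from 1.04 to 1.56. In all 5 the lowest value was that of sibling replicate 2, which is part of the likeness that chose them. Other loci of the set also had their lowest value there, among them zgc:174320, si:ch211-196c10.15 and BX005392.3. Over the other 69 loci of the set, however, the median ratio of sibling replicate 2 to the mean of sibling replicates 1 and 3 was 1. In the 5 rows this ratio was 0.304 to 0.533. Whether the authors' counting split reads between near-identical copies is not given in the sources used here, and the values do not tell copies from separate loci.

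**Figure D4:**
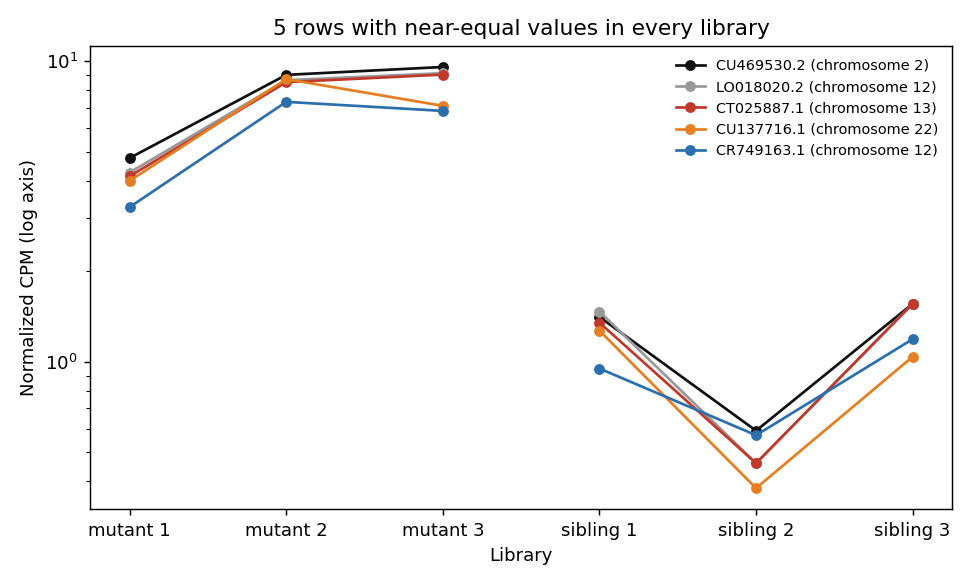
Normalized CPM (log axis) of 5 rows in the 3 mutant and the 3 WT sibling libraries, with lines joining the values of one row within a group. The 5 rows are CU469530.2 and those alike to it, chosen by their likeness over these same 6 libraries. From mutant replicate 2 to 3, CU137716.1 and CR749163.1 fall while the others rise. Each row has its lowest value, 0.38 to 0.59 normalized CPM, in sibling replicate 2.

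The rule did not use position, so rows next to the loci were examined. The build of the files has no annotation here, and neighbours were found in 2 ways: by rows whose names share a clone or contig with one of the loci, and by gene order in the RefSeq table of GRCz12tu. A shared clone places rows near each other without giving a distance or an order.

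Of the 73 loci, 30 shared a clone with at least 1 other row. In 2 cases the other row belonged to the set as well. BX901883.1 and BX901883.6 lie on opposite strands of chromosome 3, with 1.93, 2.79 and 4.37 normalized CPM in mutants and 0.55, 0.78 and 0.62 in siblings for BX901883.1, and 0.85, 1.42 and 1.80 in mutants and 0.00, 0.08 and 0.10 in siblings for BX901883.6. CT027646.4 and CT027646.5 lie on the plus strand of chromosome 2, and CT027646.4 had 0.99, 2.22 and 1.75 in mutants, against 0.29, 0.11 and 0.26 in siblings.

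The remaining 41 rows on these clones were not part of the set. Their median log2 fold change was 0.11, with 24 above 0, where the other unnamed loci had a median of -0.01 and 48.7% above 0. By limma 2 were called higher and 0 lower, where 1.41% of all genes were called higher. At an unadjusted p under 0.05, 12 were higher and 7 lower, where 8.41% of the other unnamed loci were higher. With the replicate block 12 were called higher and 4 lower, where 6.85% of all genes were called higher and 1495 of all 21769 lower. In 15 rows every mutant library was above every sibling library, and in 7 every one was below. Every mutant library was above at 10.8% of the other unnamed loci and 13.3% of all genes. For rows lower at the unadjusted p, or with every mutant library below, no such share is given here. The 41 rows include some that share a strand and may share reads with the locus on their clone.

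**Figure D5:**
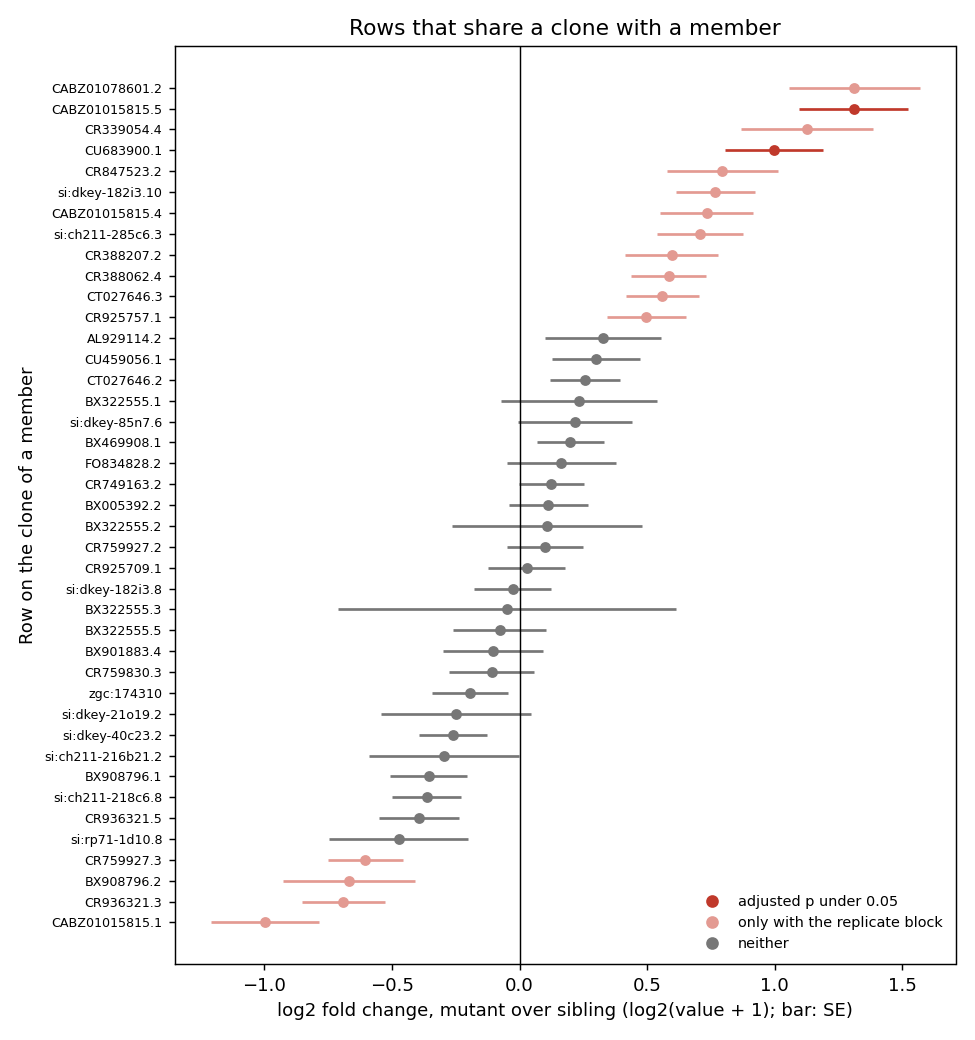
Log2 fold change, mutant over WT sibling, of the 41 rows that share a clone with one of the 73 loci (points, with the SE as bars), coloured by whether the limma adjusted p was under 0.05, was so only with the replicate number as a block, or in neither fit. The values run from about 1.31 for CABZ01078601.2 and CABZ01015815.5 to -1.0 for CABZ01015815.1, and most lie within 0.50 of 0.

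The 2 rows called higher were CABZ01015815.5 and CU683900.1. CABZ01015815.5 on chromosome 4 had 5.90, 11.35 and 8.41 normalized CPM in mutants and 3.02, 2.49 and 2.75 in siblings (log2 fold change 1.31 ± 0.21 SE, limma adjusted p = 0.0316). It lay just outside the fold limit of the rule. CU683900.1 on chromosome 7 had 2.13, 2.59 and 3.5 in mutants and 0.75, 0.62 and 1.25 in siblings (log2 fold change 1.0 ± 0.19 SE, limma adjusted p = 0.0484). Neither call held without mutant replicate 2, mutant replicate 3 or any 1 sibling library, with limma adjusted p between 0.0688 and 0.141 for CABZ01015815.5 and between 0.0832 and 0.199 for CU683900.1. With a pseudocount of 0.1 the limma adjusted p was 0.0559 for CABZ01015815.5 and 0.0756 for CU683900.1.

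The clone CABZ01015815 on chromosome 4 held rows of both directions. Beside the locus of the set, CABZ01015815.3, with 1.49, 2.02 and 3.06 normalized CPM in mutants and 0.52, 0.46 and 0.57 in siblings, the row CABZ01015815.4 had 1.63, 2.56 and 1.97 in mutants and 0.89, 1.11 and 0.52 in siblings. CABZ01015815.1, on the same strand, had 5.58, 2.77 and 3.5 in mutants, against 7.92, 8.56 and 9.45 in siblings. Its log2 fold change was -1.0 ± 0.21 (SE; limma adjusted p = 0.0627, and 0.0128 with the replicate block). The mutant libraries thus lay above the sibling libraries at 3 rows of this clone on the plus strand and below them at 1.

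The same held on chromosome 5, where CR936321.4 of the set had 0.55, 1.34 and 1.48 normalized CPM in mutants and 0.00, 0.05 and 0.05 in siblings. Its clone mate CR936321.3 on the same strand had 0.70, 0.57 and 0.22 in mutants and 1.47, 1.46 and 1.25 in siblings (log2 fold change -0.69, limma adjusted p = 0.0759, and 0.0159 with the replicate block). In contrast, on an unplaced scaffold CABZ01078601.2 had 2.92, 3.96 and 6.56 in mutants and 1.09, 0.76 and 1.61 in siblings (log2 fold change 1.31, limma adjusted p = 0.0502, and 0.00292 with the replicate block), in the same direction as CABZ01078601.1 of the set. On chromosome 1, CR339054.4 on the strand opposite to CR339054.1 had 4.38, 7.70 and 9.94 in mutants and 2.27, 3.30 and 2.49 in siblings (limma adjusted p = 0.0716, and 0.00805 with the replicate block).

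The clone of the SNORA81 row held 4 rows on the plus strand of chromosome 2. Apart from the 2 loci of the set, CT027646.3 had 0.29, 0.65 and 0.55 normalized CPM in mutants and 0.00, 0.03 and 0.00 in siblings, and CT027646.2 had 0.29, 0.59 and 0.44 in mutants and 0.20, 0.19 and 0.21 in siblings. Their limma adjusted p was 0.0901 for CT027646.3 (0.0291 with the replicate block) and 0.328 for CT027646.2, and in both every mutant library was above every sibling library. In human, SNORA81 lies within an intron of EIF4A2, which encodes a translation initiation factor. The zebrafish gene eif4a2, also on the plus strand of chromosome 2 and named after its values were seen, had 63.49, 99.23 and 117.75 normalized CPM in mutants and 36.36, 34.66 and 43.71 in siblings (log2 fold change 1.23 ± 0.23 SE, limma adjusted p = 0.0463). Without 1 library this adjusted p was 0.00744 without mutant replicate 1 and between 0.0806 and 0.213 without any other, and it was 0.0911 with a pseudocount of 0.1. The position of the clone relative to eif4a2 was not determined.

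By strand, 10 of the 23 clone mates on the same strand as the locus were higher at an unadjusted limma p under 0.05 and 5 were lower. Among the other unnamed loci 8.41% were higher at that p, and the share that was lower is not given here. On the opposite strand 2 of 17 were higher and 2 lower, and 1 further row lay on a clone with loci of both strands. The difference between strands was not tested.

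By name and chromosome, 11 of the 73 loci could be found in the RefSeq table, 9 of them protein-coding and 2 of them long non-coding RNAs (BX470240.1 and BX537282.1). The other 62 were not placed, so the following covers a small and mostly coding part of the set. The nearest named genes of the 11 loci had a median log2 fold change of 0.13, against -0.01 for all named genes. By limma 1 was called higher and 0 lower, where 1.32% of all named genes were called higher. At an unadjusted p under 0.05, 1 was higher and 0 lower as well, and the share of all named genes at that p is not given here.

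The 1 locus near a raised named gene was a protein-coding si: locus (ENSDARG00000089513) on the minus strand of chromosome 15. It had 2.48, 3.70 and 1.80 normalized CPM in mutants, against 0.49, 0.46 and 0.47 in siblings. Within 50 kb and on the same strand lies pimr190, a gene of the large zebrafish family of Pim-related kinases, with 1.93, 2.40 and 1.37 in mutants and 0.37, 0.54 and 0.26 in siblings. Within 100 kb and on the same strand lies exo5, which in human encodes a single-strand DNA exonuclease, with 17.25, 32.68 and 16.83 in mutants and 3.37, 2.70 and 3.32 in siblings. In all 3 genes mutant replicate 2 was the highest and no mutant value overlapped a sibling value. All 3 meet the fold and level rule, which requires that separation. Replicate 2 was also the highest mutant library at 90 of the 111 rows with other names that met the rule, so nothing is read from these shared features.

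The log2 fold change of pimr190 was 1.05 ± 0.17 (SE, limma adjusted p = 0.0317), and that of exo5 was 2.43 ± 0.25 (SE, limma adjusted p = 0.00664). Without mutant replicate 2 or any 1 sibling library the call of pimr190 was lost, with limma adjusted p between 0.119 and 0.144, whereas exo5 stayed under 0.05 in each such fit, at most at 0.0488. Whether reads of the Pim-related family are split between its rows was not tested. Another row of the family, pimr191 on chromosome 15, had 2.54, 3.77 and 2.02 normalized CPM in mutants and 0.69, 0.49 and 0.26 in siblings. Other rows on the clone of ENSDARG00000089513 went the other way: BX908796.2, on the opposite strand, had 0.55, 0.36 and 0.38 in mutants and 2.22, 0.51 and 1.40 in siblings (limma adjusted p = 0.194, and 0.041 with the replicate block).

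Counted over all distances, 0 of the 11 loci had a named gene that met the fold and level rule within 10 kb, and 1 had one within 50 kb and within 100 kb (9.09%). Of the 2295 other unnamed loci in that table, 24 (1.05%), 44 (1.92%) and 63 (2.75%) did. By the limma call in place of the rule the loci gave 0, 1 and 1, and the other unnamed loci 40 (1.74%), 89 (3.88%) and 131 (5.71%).

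Of the 38 named genes within 100 kb of the placed loci, pimr190 and exo5 passed the limma threshold, where 1.7% of all genes did in either direction. With the replicate block 4 more did, where 13.7% of all genes were called in either direction. The 4 were abcg4b (higher, log2 fold change 0.59, limma adjusted p = 0.0316 with the block and 0.339 without), ch25hl3 (lower, -0.65, 0.0238 and 0.152), ift52 (lower, -0.53, 0.0368 and 0.129) and phykpl (lower, -0.55, 0.038 and 0.114). The loci that overlap a named gene on the opposite strand were, beside the one at ar, si:dkey-40h20.1 at ctnnd2a, which encodes a catenin of the delta group, and BX470240.1 at exoc4, which encodes a subunit of the exocyst. si:dkey-40h20.1 had 4.32, 8.35 and 4.70 normalized CPM in mutants and 0.09, 0.27 and 0.31 in siblings, while ctnnd2a had 5.93, 3.75 and 3.72 in mutants and 6.97, 5.05 and 5.45 in siblings (log2 fold change -0.33, limma adjusted p = 0.375). exoc4 had 26.12, 20.27 and 13.61 in mutants and 27.46, 29.29 and 25.49 in siblings (log2 fold change -0.48, limma adjusted p = 0.267). Neither overlapping gene passed the limma threshold, also with the replicate block.

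The nearest gene to si:dkey-182i3.9 on chromosome 15, within 10 kb on the opposite strand, was hmbsb, which encodes an enzyme of heme synthesis. The locus had 6.71, 6.41 and 19.67 normalized CPM in mutants and 2.56, 2.32 and 2.08 in siblings, and hmbsb had 42.35, 32.11 and 77.04 in mutants and 42.72, 32.55 and 31.82 in siblings (limma adjusted p = 0.481). In mutants both were highest in replicate 3, while in mutant replicates 1 and 2 hmbsb was within the sibling range. On the same clone as the locus and on the same strand, si:dkey-182i3.10 had 6.01, 7.94 and 7.76 in mutants and 3.91, 3.35 and 4.21 in siblings (limma adjusted p = 0.055, and 0.0141 with the replicate block).

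The genes nearest to the remaining placed loci included mybl2b, a transcription factor gene of the cell cycle, within 10 kb of si:dkey-40c23.1, and lbr, the lamin B receptor gene, within 10 kb of si:dkey-1j5.4. mybl2b had 52.28, 50.18 and 64.26 normalized CPM in mutants and 64.94, 69.03 and 80.47 in siblings (limma adjusted p = 0.243), below the sibling libraries in each mutant library, unlike si:dkey-40c23.1. lbr had 155.00, 142.04 and 198.29 in mutants and 187.74, 195.06 and 206.36 in siblings (limma adjusted p = 0.397), with overlapping groups. si:dkey-1j5.4 itself had 2.60, 3.18 and 2.79 in mutants and 0.95, 0.65 and 0.62 in siblings.

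For context among named genes, a list of 25 p53 pathway genes, chosen with earlier results of these data known, had 24 measured, 9 called higher and 0 lower by limma, with a median log2 fold change of 0.50, where 1.41% of all genes were called higher. With the replicate block 12 were called higher and 1 lower, where 6.85% of all genes were called higher and 13.7% in either direction. A list of 17 genes of snRNA transcription had 13 measured, 5 called higher and 0 lower in both fits, with a median of 0.46. Over all genes the median log2 fold change was -0.01. Of the p53 list 7 genes and of the snRNA list 4 met the fold and level that chose the unnamed loci, where 0.845% of all genes did.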

How the data were processed

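RNA of 6 zebrafish libraries (3 dhx38 mutant, 3 WT sibling) was grouped by the sample titles. The deposited signal of each gene, to 2 decimals, is called normalized CPM in the headers. Tools and build in the submitters' processing notes are fastp, STAR, featureCounts, edgeR and GRCz11, with no versions, roles or order. How the authors normalized, set the strand and filtered genes is not given in the sources used here. The shorter table of 956 rows repeats values of the larger one.

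Values were tested as log2(value + 1) over all 21769 rows with limma 3.58.1 in R 4.3.3 (lmFit, eBayes defaults) and Benjamini-Hochberg adjustment, at an adjusted p of 0.05. The log2(value + 1) scale understates the change of low genes. The scripts were tested on simulated data. Other values were computed in Python 3.11.15 with pandas 2.3.3. A count test was not used, since whole reads could not be recovered in every library.

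The members and the gene lists were chosen with earlier results of these data known. Named members were the 12 with the highest mutant mean, the 12 with the largest ratio of lowest mutant to highest sibling value among those with a sibling mean of at least 0.5, those next to the thresholds, those with a descriptive symbol in the name table (which matched 20433 rows), those on a shared clone, and the 6 with the largest spread between mutants. Members and rows named outside this rule were chosen after their values were seen.

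Replicate numbers 1 to 3 come from the titles. Deviations from the group means, over genes with a mean of at least 1, correlated at 0.461, 0.450 and 0.591 between libraries of the same number and at -0.475 to 0.152 between others, so the numbers were taken to pair the libraries. The fit without a block stayed the main one.

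Alternatives were other thresholds, pseudocounts, filters, centring, a variance trend, the replicate block and leaving out each library. The clone comparison and the likeness rule were added after seeing the data. Promoter motifs and sequences were not analysed here.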

Additional observations from a re-analysis of the deposited data

How the results depend on the processing

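The number of unnamed loci that met the rule was 73; it was 121 at 1.5 times, 46 at 3 times, 23 at a mutant mean of at least 5, 100 with same-number pairs compared (the replicate block form of the rule), and 69 to 136 without 1 library, the highest without mutant replicate 1. Limma called 370 of all genes in either direction; it called 41 at an adjusted p under 0.01, 205 with a pseudocount of 0.1, 2986 with the replicate block and 31 to 1731 without 1 library, the highest without mutant replicate 1 and the lowest without sibling replicate 3. Of the 73 loci it called 57 higher; it called 14 under the 0.01 threshold, 73 with the replicate block and 13 to 68 without 1 library. Of the nearest named genes it called 1; it called 0 under the 0.01 threshold, 1 with the replicate block and 0 to 1 without 1 library. The locus with a raised named gene nearby, 1 within 50 kb, was 0 within 10 kb. The clone mates called higher were 2; they were 12 with the replicate block, 10 without mutant replicate 1, 0 without any other library and at an adjusted p under 0.01, and 1 with only genes of a mean of at least 1. The limma adjusted p of dhx38 was 0.0493 with each library centred on its median, 0.0419 with a variance trend and 0.0424 without mutant replicate 1, and that of CABZ01078601.2 was 0.047, 0.0452 and 0.0191 under the same settings. The summed level ratio of 5.86 was 6.44 without the 5 loci of highest mutant mean. Among the other calls printed with a p in the report, those that the replicate block changed are given there with both values. The count test on recovered reads, with and without the replicate block, was not run, because whole reads could not be recovered in 4 of the 6 libraries. Without 1 library a group of 2 is taken to vary like the other. Values near 0.03 or 0.05 normalized CPM limit the precision of the low sibling levels.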
